A study of Homo sapiens with 6 samples.

Results

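CXCL8 and 9 related chemokine genes (CXCL1, CXCL2, CXCL3, CXCL5, CXCL6, CXCL10, CXCL11, CXCL16 and CCL20) were examined in ovarian cancer cells after knockdown of NUF2. The 10 genes were found by their symbols among 19973 genes with read counts, and they had been selected on the measured difference between NUF2 knockdown and control, so that their values in this contrast are a description and carry no test. RNA-seq was performed on cells labelled OVCAR3, which is an epithelial ovarian carcinoma cell line. There were 3 libraries of cells transfected with the negative control hairpin shNC, whose genotype is given as WT, and 3 of cells transfected with shNUF2, labelled as NUF2 knockdown. The hairpin against NUF2 was cloned behind a U6 promoter in a plasmid with puromycin resistance, and 1 such hairpin was used in these libraries. NUF2 is a subunit of the NDC80 complex, which joins kinetochores to spindle microtubules. Neither the labels nor the methods say that the libraries of a group came from separate cultures, so that p-values measure only the spread between these libraries.

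Chemokines are small secreted proteins that guide leukocytes through G protein-coupled receptors. CXCL8, CXCL1, CXCL2, CXCL3, CXCL5 and CXCL6 carry a glutamate-leucine-arginine motif, bind CXCR2 (CXCL8 and CXCL6 also CXCR1) and attract neutrophils. CXCL10 and CXCL11 lack this motif, are induced by interferons and bind CXCR3 on T cells. CXCL16 is made as a membrane protein that binds CXCR6 and is shed by ADAM10 and ADAM17, and CCL20 binds CCR6. In epithelial cells the neutrophil-attracting group and CCL20 are typically induced by interleukin-1 or TNF through NF-κB, together with AP-1 and C/EBP factors in the case of CXCL8, and tumour-derived CXCL8 is known to promote angiogenesis.

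The libraries held 13057534 to 16995452 reads on genes. NUF2 gave 903, 1096 and 1092 reads under shNC, compared with 281, 290 and 384 under shNUF2, a log2 fold change of -1.51 (SE 0.08). Among markers of ovarian carcinoma, KRT7 had 7485 to 12768 reads, MUC16 had 371 to 873, PAX8 had 143 to 252, EPCAM had 44 to 91 and CDH1 had 9 to 33. WT1 was at or near 0, with 0, 0 and 1 read under shNC against 7, 1 and 0 under shNUF2, and SOX17 had 1 to 14 reads. The near absence of WT1 and SOX17 and the low CDH1 and EPCAM counts go against the labelled cell type, while KRT7, MUC16 and PAX8 were present. All 11 ovarian carcinoma markers together had 21707 to 28060 reads in a shNC library and 22660 to 25555 in a shNUF2 library. This sum includes KRT8, KRT18, MSLN and ESR1, which are not given singly, so that only a part of the list goes against the label. The summed level of 10 leukocyte markers was 2.96 to 3.44 CPM with shNC and 15.3 to 17.3 CPM with shNUF2, where CPM is reads per 1000000 of the TMM-scaled library. LAPTM5 made up most of it, with 35 to 42 reads under shNC against 174 to 201 under shNUF2. Of the defining leukocyte genes, CD3E, MS4A1 and FCGR3B had at most 1 read in a library, and PTPRC had 0, 1 and 0 reads in the shNC libraries against 6, 11 and 6 in the shNUF2 libraries. The summed level of 6 fibroblast markers was 84.0 to 90.6 CPM with shNC and 69.0 to 76.3 CPM with shNUF2. COL1A1 made up most of it (log2 fold change -0.39, SE 0.06), while DCN was called higher at 1.22 (SE 0.20) and PDGFRB was at 0.53 (SE 0.38). The summed level of 5 endothelial markers was 2.13 to 3.45 CPM with shNC and 4.82 to 6.46 CPM with shNUF2. The part of these markers in the chemokine values was not tested. In bulk libraries, fewer cells with a transcript and less transcript per cell cannot be told apart.

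The chemokine promoters are shown because the genes differ in level although they share short sequence motifs. RefSeq promoter sequences on GRCh38 were matched by symbol for 9 of the 10 genes, all but CXCL16. Each line below gives 150 bases before the RefSeq start, 5′ to 3′ on the strand of the gene, and capitals mark matches of the NF-κB type motif GGNNNTTCC on either strand. The windows are chr4:73740419-73740568 (plus strand) for CXCL8, chr4:73869243-73869392 (plus strand) for CXCL1, chr4:74099196-74099345 (minus strand) for CXCL2, chr4:73998678-73998827 (minus strand) for CXCL5, chr4:76023498-76023647 (minus strand) for CXCL10 and chr2:227813692-227813841 (plus strand) for CCL20. The RefSeq start can differ from the gene start given with the counts. By the latter positions, the windows of CCL20 and CXCL11 lie within the gene, and those of CXCL8, CXCL2, CXCL3 and CXCL6 reach into it.

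CXCL8: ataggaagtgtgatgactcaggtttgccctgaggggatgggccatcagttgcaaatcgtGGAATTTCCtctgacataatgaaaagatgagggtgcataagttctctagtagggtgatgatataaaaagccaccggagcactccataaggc
CXCL1: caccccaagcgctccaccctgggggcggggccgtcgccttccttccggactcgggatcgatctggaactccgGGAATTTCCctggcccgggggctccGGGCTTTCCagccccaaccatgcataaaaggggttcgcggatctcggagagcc
CXCL2: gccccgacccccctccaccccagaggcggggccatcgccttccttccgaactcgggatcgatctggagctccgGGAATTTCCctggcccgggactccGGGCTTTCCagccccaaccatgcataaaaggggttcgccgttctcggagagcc
CXCL5: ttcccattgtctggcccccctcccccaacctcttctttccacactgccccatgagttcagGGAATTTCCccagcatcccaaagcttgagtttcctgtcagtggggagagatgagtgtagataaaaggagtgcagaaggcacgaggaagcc
CXCL10: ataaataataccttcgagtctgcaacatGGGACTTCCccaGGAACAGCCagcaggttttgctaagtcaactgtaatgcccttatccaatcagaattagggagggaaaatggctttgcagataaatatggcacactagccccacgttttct
CCL20: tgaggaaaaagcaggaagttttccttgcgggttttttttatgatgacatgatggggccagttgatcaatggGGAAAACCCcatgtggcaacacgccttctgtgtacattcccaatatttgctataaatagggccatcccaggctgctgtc

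GGNNNTTCC was found within 250 bases before the start in 9 of 9 chemokine promoters, against 17.1% of 35116 promoters of the same length. The same 9 bases, GGAATTTCC, were present at 91 to 83 bases before the start of CXCL8, 78 to 70 before CXCL1 and CXCL3, 77 to 69 before CXCL2, 90 to 82 before CXCL5 and 89 to 81 before CXCL6. CXCL1, CXCL2 and CXCL3 carried a second match, GGGCTTTCC, at 53 to 45 bases before the start. CXCL10 and CXCL11 carried GGAAATTCC, the reverse complement of GGAATTTCC, which in CXCL10 lies at 176 to 168, before the printed window. CXCL10 also carried GGGACTTCC at 122 to 114 and GGAACAGCC, a match on the opposite strand, at 110 to 102. CCL20 carried GGAAAACCC, a match on the opposite strand. The AP-1 motif TGANTCA, searched on both strands, was found in CXCL8 and CXCL11 (2 of 9, against 6.57% of all promoters). The pattern GAAANNGAA, part of the interferon-stimulated response element and also searched on both strands, was found in CXCL2, CXCL3 and CXCL10 (3 of 9, against 6.88%). TATAAA on the strand of the gene was found in CXCL8, CXCL11 and CCL20 (3 of 9, against 6.80%). No match of 1 motif overlapped a match of another in these promoters. A match describes letters and not a bound site.

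Of the 10 chemokines, 9 had at least 1 read and 7 passed the filter on low counts and were fitted with the other genes by edgeR. The log2 fold change was above 1 with an unadjusted p under 0.05 for 6 of these 7, against 9.41% of 12874 genes tested, and below -1 for CXCL16 alone, against 4.16%. The 3 shNUF2 libraries were all above the 3 shNC libraries for the same 6 genes, against 35.2% of genes, and all below for CXCL16, against 35.4%. Because the genes were selected on this contrast, nothing is read from these counts against the background. CXCL1 and CXCL11 passed the filter through the shNUF2 libraries only, and CXCL11 was below the threshold in limma on log2(FPKM + 1). The median log2 fold change of all genes tested was -0.01.

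**Figure D1:**
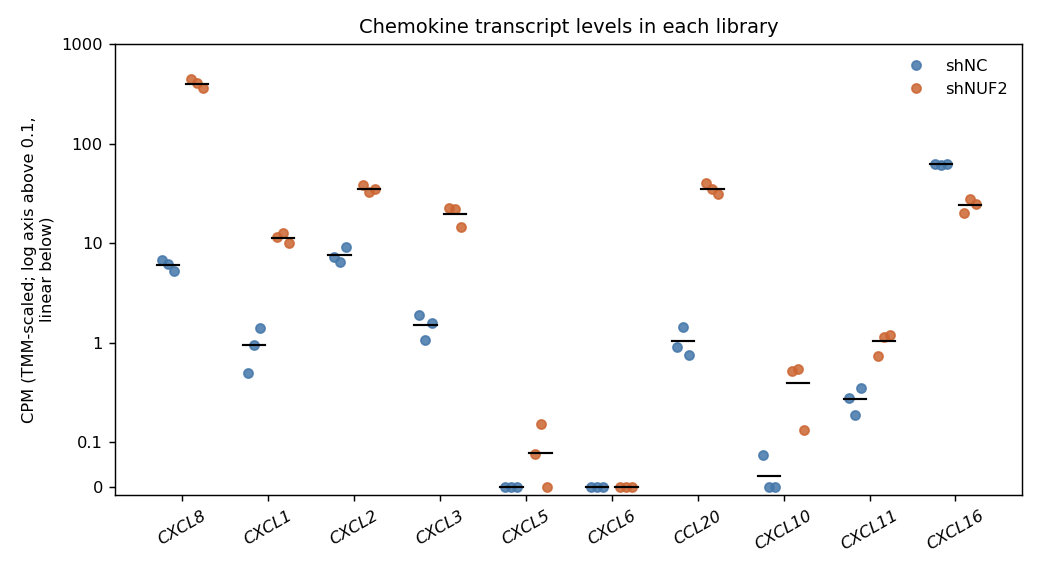
Level of each chemokine (CPM, TMM-scaled) in 3 shNC and 3 shNUF2 libraries, on an axis that is logarithmic above 0.1 and linear below it; points are libraries and lines are group means. CXCL8 lies at 5.29 to 6.75 CPM with shNC and at 358 to 441 CPM with shNUF2, CXCL16 is the gene that lies lower with shNUF2, and CXCL6 is at 0 in all 6 libraries.

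CXCL8, the main neutrophil attractant of the group, showed the largest difference of the 7 fitted genes. It lies on chromosome 4 from 73740541 to 73743716 (GRCh38, plus strand). The shNC libraries held 96, 98 and 91 CXCL8 reads and the shNUF2 libraries 5939, 5224 and 5380. The lowest shNUF2 library was therefore far above the highest shNC library, and the spread within each group was small beside the gap. The CPM level was 6.06 ± 0.73 (SD, n = 3) with shNC and 400.1 ± 41.5 (SD, n = 3) with shNUF2, a log2 fold change of 6.05 (SE 0.09) or 66.4-fold. Among the genes tested, 25 had a larger log2 fold increase. Ranked by length-scaled level (FPKM), CXCL8 stood at place 8828 of all listed genes with shNC and at place 148 with shNUF2.

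CXCL1, CXCL2 and CXCL3, the GRO chemokines, are close relatives that bind CXCR2. CXCL1 gave 7, 15 and 24 reads under shNC, compared with 154, 164 and 150 under shNUF2, a log2 fold change of 3.54 (SE 0.24). The shNC libraries differed among themselves by more than the shNUF2 libraries did on the log2 scale, but the groups did not overlap. CXCL3 had 27, 17 and 27 reads in the shNC libraries against 307, 289 and 218 in the shNUF2 libraries, a log2 fold change of 3.71 (SE 0.21). CXCL2 gave 103, 103 and 157 reads under shNC, compared with 513, 420 and 522 under shNUF2, a log2 fold change of 2.20 (SE 0.12). By FPKM, that is reads per kilobase of gene length and 1000000 reads, CXCL2 was the highest of the 3 in both groups, and its difference between groups was the smallest. Of the 50-base windows of the transcripts, 5.73% in CXCL1, 9.24% in CXCL2 and 5.26% in CXCL3 occurred in another of the 3, whereas 0% of 100-base windows did, so that a small share of reads could be split or dropped between these genes. CXCL8 and CCL20 shared 0% of either kind of window with another gene.

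CXCL5 and CXCL6, further CXCR2 ligands in the same cluster, were at or near 0. CXCL5 was at 0 under shNC and at 1, 2 and 0 reads under shNUF2, and CXCL6 had 0 reads in all 6 libraries, which allows up to 3 reads per library. No fold change is given for either gene. Both carry the GGAATTTCC that is also found upstream of CXCL8.

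CCL20, which attracts CCR6-bearing T cells and dendritic cells, had the second largest difference of the fitted genes. It had 13, 23 and 13 reads in the shNC libraries against 538, 459 and 464 in the shNUF2 libraries. The level was 1.04 ± 0.36 CPM with shNC and 35.4 ± 4.53 CPM with shNUF2 (SD, n = 3 each), a log2 fold change of 5.08 (SE 0.17) or 33.9-fold, and the groups did not overlap. CCL20 lies on chromosome 2 from 227805739 to 227817564, away from the CXC genes on chromosome 4, and CXCL16 lies on chromosome 17 from 4733533 to 4739928.

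The CXCR3 ligands were present at a few reads per library. CXCL10 gave 1, 0 and 0 reads under shNC, compared with 7, 7 and 2 under shNUF2, a ratio of 18.3 with a 95% counting interval of 2.84 to 766 that rests on 1 shNC read and tests nothing, and it had too few reads to pass the filter. CXCL11 had 4, 3 and 6 reads in the shNC libraries against 10, 15 and 18 in the shNUF2 libraries, a log2 fold change of 1.88 (SE 0.52), which was 0.44 in limma on log2(FPKM + 1). It was not fitted with a minimum of 1 CPM in 3 libraries. CXCL9, the third CXCR3 ligand, had 0 reads in all 6 libraries. Both CXCL10 and CXCL11 lie within ART3 on the opposite strand, which had at most 6 reads in a library, and the strand setting of the counting is not given in the sources used here.

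CXCL16 differed in the other direction. It gave 894, 970 and 1080 reads under shNC, compared with 269, 362 and 370 under shNUF2, with no overlap between the groups. The level was 62.1 ± 1.23 CPM with shNC and 24.1 ± 3.97 CPM with shNUF2 (SD, n = 3 each), a log2 fold change of -1.36 (SE 0.08), and 194 genes had a larger log2 fold decrease. Of the proteases that shed it, ADAM10 had a log2 fold change of -0.02 (SE 0.05, edgeR adjusted p = 0.73) and ADAM17 of 0.30 (SE 0.07, edgeR adjusted p = 0.00023), neither beyond 1. CXCL16 overlaps MED11 on the opposite strand by 78 bases.

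**Figure D2:**
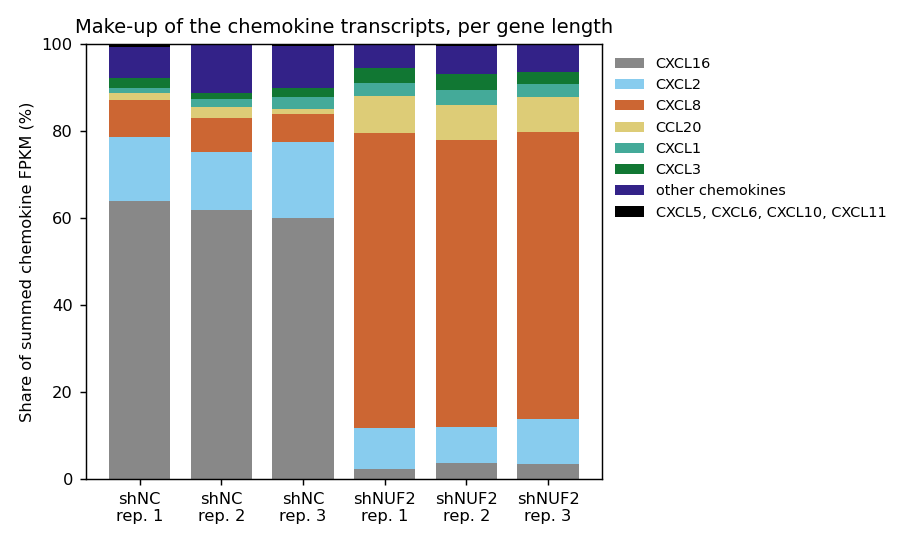
Share (%) of the summed FPKM of 46 chemokine genes taken by each gene, 1 bar for each of the 3 shNC and 3 shNUF2 libraries. CXCL16 takes 60.1% to 63.9% with shNC, and CXCL8 takes 65.8% to 67.6% with shNUF2.

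The order of the genes by level per length changed between the groups. With shNC, FPKM was highest for CXCL16 (22.5 ± 0.35), followed by CXCL2 (5.51 ± 0.99) and CXCL8 (2.74 ± 0.33), whose ranges did not overlap. CXCL1, CXCL3 and CCL20 followed at 0.70 ± 0.34, 0.69 ± 0.19 and 0.66 ± 0.23 FPKM with overlapping ranges, ahead of CXCL11 at 0.15 ± 0.05. With shNUF2, CXCL8 led at 176 ± 17.4 FPKM, and CXCL2 (24.7 ± 1.80) and CCL20 (21.9 ± 2.68) came next with overlapping ranges. CXCL3 (8.82 ± 2.05), CXCL16 (8.54 ± 1.48) and CXCL1 (8.22 ± 0.99) overlapped each other, and CXCL11 (0.57 ± 0.14) overlapped CXCL10 (0.33 ± 0.19). These are SDs of n = 3 libraries. The order rests on the deposited gene lengths, such as 2219 bases for CXCL3 and 1594 for CCL20. The longest coding transcripts of these 2 genes have 1075 and 839 bases, so that the order of genes with similar FPKM, and the shares below, depend on the length used. With shNC, CXCL16 made up 62.0% ± 1.90 of summed chemokine FPKM and CXCL8 7.56% ± 1.14. With shNUF2 the shares were 3.25% ± 0.69 for CXCL16, 66.5% ± 1.00 for CXCL8, 9.36% ± 0.89 for CXCL2 and 8.24% ± 0.32 for CCL20. The ratio of CXCL8 to CXCL16 FPKM was 0.13, 0.13 and 0.11 in the shNC libraries and 27.5, 18.0 and 18.1 in the shNUF2 libraries.

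The libraries of a group differed little in the most abundant genes. In shNUF2, replicate 1 had the highest CPM level of CXCL8, CCL20, CXCL2 and CXCL3 and the lowest of CXCL16. CXCL1 and CXCL16 were highest in shNUF2 replicate 2, and CXCL11 in shNUF2 replicate 3. These differences between libraries of 1 group were small beside the differences between groups.

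**Figure D3:**
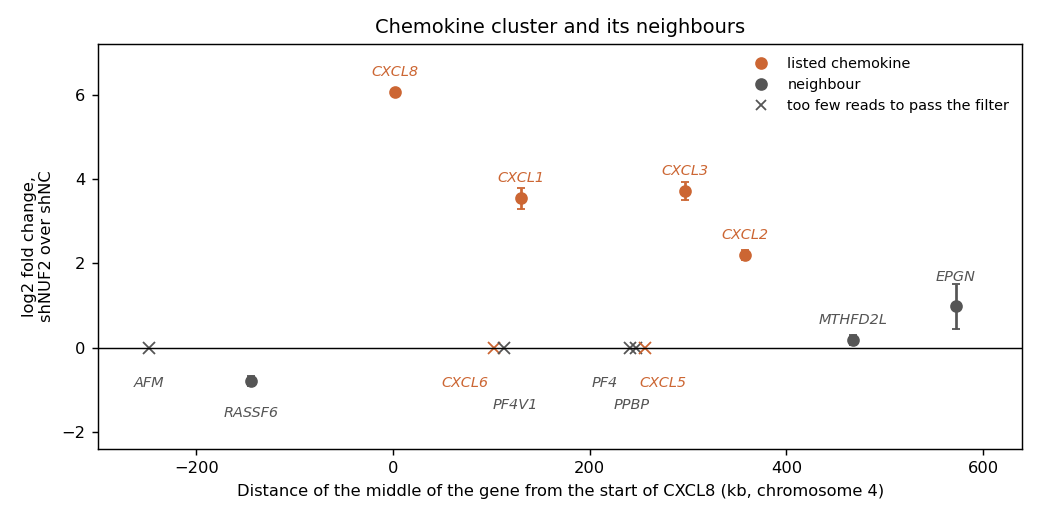
Log2 fold change, shNUF2 over shNC, with its standard error for genes around CXCL8 on chromosome 4, placed by the distance of the middle of each gene from the start of CXCL8 in kb; crosses at 0 are genes with too few reads to pass the filter. CXCL8, CXCL1, CXCL3 and CXCL2 lie above 2, and RASSF6, MTHFD2L and EPGN lie between -0.80 and 0.97.

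CXCL8, CXCL6, CXCL1, CXCL5, CXCL3 and CXCL2 lie in this order on chromosome 4, between 73740541 and 74099196. Within 250 kb on either side and between them, the annotation of the table held 7 further genes, of which 3 were fitted and none was called higher or lower. RASSF6, a Ras association domain protein, had a log2 fold change of -0.80 (SE 0.13, edgeR adjusted p = 4.06e-06). MTHFD2L, a mitochondrial folate enzyme, had a log2 fold change of 0.18 (SE 0.12, edgeR adjusted p = 0.20), and EPGN, an epidermal growth factor family ligand, of 0.97 (SE 0.53, edgeR adjusted p = 0.11). The platelet chemokines PF4 and PF4V1 and the albumin family gene AFM had 0 reads, and PPBP was at 0 in the shNC libraries and at 10, 2 and 5 reads in the shNUF2 libraries. The genes with reads were thus interspersed with genes of the same family that had 0 reads.

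Other chemokine genes were few. Of 36 further chemokines in the table, 18 had no read and 4 passed the filter, and these 4 were called higher with shNUF2, against the 9.41% of all genes given above. CCL3L3, CCL22 and CCL26 passed the filter through the shNUF2 libraries only, where they are high, so that nothing is read from this count. Only CCL5, which attracts T cells and monocytes, passed the filter on low counts in the shNC libraries too, with 49, 76 and 69 reads under shNC against 217, 230 and 208 under shNUF2 (log2 fold change 1.95, SE 0.16, edgeR adjusted p = 2.0e-11). CCL22, a CCR4 ligand, had 1, 3 and 0 reads in the shNC libraries against 14, 16 and 14 in the shNUF2 libraries. CCL26, an eotaxin that binds CCR3, gave 0, 2 and 10 reads under shNC, compared with 14, 25 and 38 under shNUF2. CCL3L3 was at 0 in the shNC libraries and at 12, 13 and 13 reads under shNUF2, which is at least 4.81-fold higher against a floor of 3 reads per library, and it is nearly identical to CCL3L1, so that its count is uncertain.

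Receptors for the neutrophil attractants were not detected. CXCR1, CXCR2 and the CCL20 receptor CCR6 had 0 reads in all 6 libraries, which allows up to 3 reads per library, and CXCR3 had 0, 0 and 1 read with shNC and 0 in each shNUF2 library. Of 23 chemokine receptor genes, 8 passed the filter, 3 were higher (against 9.41% of all genes tested) and 5 were not called, with a median log2 fold change of 0.82. CXCR4, the receptor of CXCL12, had 637, 667 and 726 reads in the shNC libraries against 1795, 1509 and 1844 in the shNUF2 libraries (log2 fold change 1.53, SE 0.06, edgeR adjusted p = 5.49e-18). CXCR6, the CXCL16 receptor, gave 6, 8 and 10 reads under shNC, compared with 18, 27 and 33 under shNUF2 (log2 fold change 1.87, SE 0.40, edgeR adjusted p = 0.00018), and passed the filter through the shNUF2 libraries only. CCRL2, a chemerin-binding receptor, was higher by 1.43 (SE 0.19, edgeR adjusted p = 3.46e-07) on the log2 scale.

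**Figure D4:**
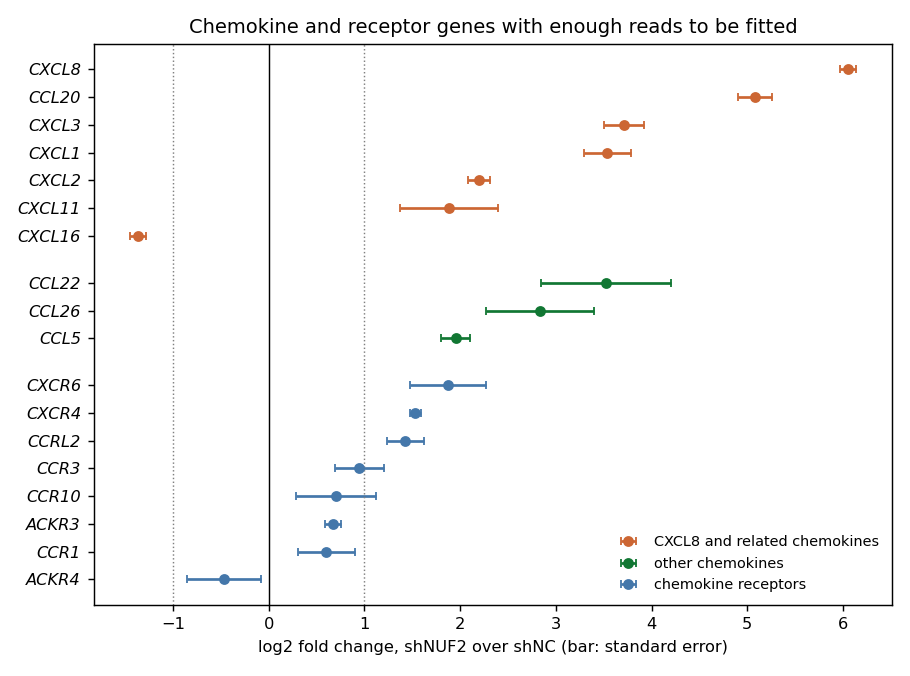
Log2 fold change, shNUF2 over shNC, with standard errors for the fitted chemokines and receptors; dotted lines are at -1 and 1, and CCL3L3 is left out because its shNC libraries are at 0. CXCL8 is at 6.05, CCL20 at 5.08 and CXCL16 at -1.36, and the 8 receptors lie between -0.47 and 1.87.

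Genes that act upstream of CXCL8, or that are induced beside it, were taken from 7 lists with 93 genes. Of these, 80 were fitted, 25 were higher (against 9.41% of all genes) and 1 was lower (against 4.16%), with a median log2 fold change of 0.53 against -0.01. Of the 73 that passed the filter in the shNC libraries too, 18 were higher. The lists were chosen with earlier results of these data known, so that nothing is read from their counts or medians against the background. Inducing ligands and receptors were called higher for 5 of 13, against the same 9.41%. IL1A had 363, 339 and 315 reads in the shNC libraries against 2992, 2454 and 2963 in the shNUF2 libraries (log2 fold change 3.23, SE 0.08, edgeR adjusted p = 2.74e-22). IL1B gave 150, 125 and 123 reads under shNC, compared with 1042, 825 and 989 under shNUF2 (log2 fold change 3.03, SE 0.11, edgeR adjusted p = 9.25e-19). Both encode interleukin-1 cytokines that signal through IL1R1 and IL1RAP, whose log2 fold changes were 1.07 and 1.27. TNFRSF1B, a TNF receptor, was higher by 1.70, and TLR3, a receptor for double-stranded RNA, was the 1 gene called lower, at -1.58. TNF itself had 0, 3 and 0 reads in the shNC libraries against 9, 7 and 5 in the shNUF2 libraries, too few to pass the filter.

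Among 15 genes for NF-κB subunits, inhibitors and kinases, 2 were called higher, a share close to the 9.41% of all genes. These were TNFAIP3, which encodes the deubiquitinase A20, and NFKBIZ, a nuclear cofactor of NF-κB, with log2 fold changes of 3.01 (SE 0.06, edgeR adjusted p = 3.57e-24) and 2.27 (SE 0.06, edgeR adjusted p = 3.19e-22). With the 2 included, 12 of the 15 were above 0 with an edgeR adjusted p under 0.05, against 33.9% of all genes tested, and 1, the kinase gene IKBKB, was below 0 with an edgeR adjusted p under 0.05 (log2 fold change -0.55, SE 0.06), against 33.8%. CHUK and IKBKG, which encode the other subunits of that kinase complex, were at -0.13 (SE 0.07) and -0.10 (SE 0.12). RELA, the main activating subunit, was at 0.98 (SE 0.04), NFKBIA, an inhibitor, at 0.79 (SE 0.05) and NFKB1 at 0.42 (SE 0.06). The AP-1 and C/EBP list held 10 fitted genes, of which FOSB (log2 fold change 2.99), FOSL1 (2.32), ATF3 (2.07) and JUN (2.03) were called higher, against 9.41% of all genes. JUND and FOSL2 were at -0.62 (SE 0.07, edgeR adjusted p = 1.16e-08) and -0.14 (SE 0.04, edgeR adjusted p = 0.0034). CEBPB was at 0.53 (SE 0.10).

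**Figure D5:**
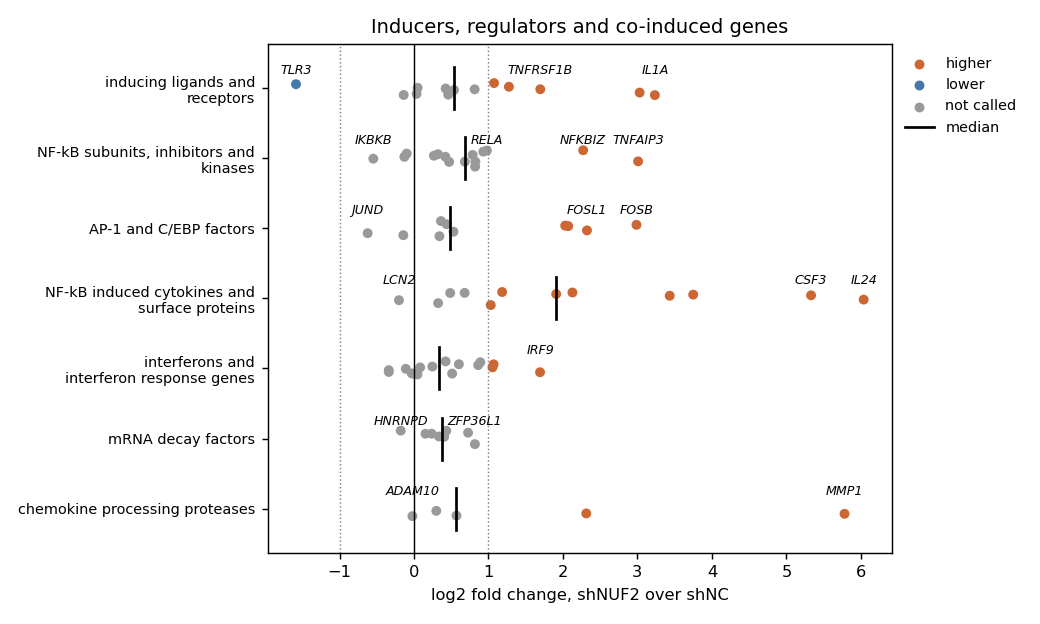
Log2 fold change, shNUF2 over shNC, of fitted genes in the 7 lists of inducers, regulators and co-induced genes; each point is a gene, coloured by whether it was called higher, lower or neither, black bars are list medians and dotted lines are at -1 and 1. The co-induced cytokines and surface proteins have a median of 1.91 and the interferon genes of 0.34, and SELE is left out as a point because its shNC libraries are at 0. The median of 1.91 includes CSF2, CSF3, IL24 and SELE, and that of 0.34 includes IRF9. These genes passed the filter through the shNUF2 libraries only, so that the medians are not compared.

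Of 14 genes known to be induced by NF-κB, 13 were fitted and 9 were called higher, against 9.41% of all genes, and the median log2 fold change was 1.91. IL24, a cytokine of the interleukin-10 family, gave 1, 6 and 2 reads under shNC, compared with 178, 176 and 185 under shNUF2. CSF3, the granulocyte colony-stimulating factor, had 0, 4 and 0 reads in the shNC libraries against 61, 48 and 45 in the shNUF2 libraries. IL6 gave 57, 70 and 58 reads under shNC, compared with 704, 749 and 724 under shNUF2 (log2 fold change 3.75, SE 0.12, edgeR adjusted p = 4.29e-20). SELE, an adhesion molecule of activated endothelium, was at 0 in the shNC libraries and at 22, 13 and 18 reads under shNUF2, which is at least 6.68-fold higher against the floor of 3 reads per library. In 4 of the 9 (CSF2, CSF3, IL24 and SELE) the filter on low counts was passed through the shNUF2 libraries only, where they are high. Nothing is read from these 4, which are part of the count and of the median of 1.91. Of the 9 fitted genes that passed in the shNC libraries too, 5 were called higher. The endothelial marker genes CDH5 and TEK were also higher, each with at most 27 reads in a library and past the filter through the shNUF2 libraries only. PECAM1, the endothelial marker with the most reads, gave 46, 24 and 49 reads under shNC, compared with 28, 43 and 32 under shNUF2 (log2 fold change -0.02, SE 0.30, edgeR adjusted p = 0.97). The part of these markers in the SELE value was not tested.

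Interferon response genes had a median log2 fold change of 0.34, with 3 of 16 fitted genes called higher, against 9.41% of all genes. IRF9, OAS1 and IFI44 were at 1.69, 1.07 and 1.05, and IRF9 passed the filter through the shNUF2 libraries only. IRF1, an interferon-induced transcription factor, was at 0.86 (SE 0.11, edgeR adjusted p = 2.39e-07), below the threshold. The 8 fitted mRNA decay factors were not called. Of these, 7 were above 0 with an edgeR adjusted p under 0.05, against 33.9% of all genes, among them ZFP36, which destabilises AU-rich cytokine mRNAs, at 0.73 (SE 0.06), and HNRNPD was at -0.18 (SE 0.05, edgeR adjusted p = 0.0019). Of 5 fitted proteases that cut chemokines, MMP1 and MMP9 were higher, against 9.41% of all genes, with log2 fold changes of 5.78 (SE 0.17) and 2.31 (SE 0.35), and both passed the filter through the shNUF2 libraries only. The 3 that passed in the shNC libraries too, ADAM10, ADAM17 and ANPEP, were not called.

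The 5 genes whose centred log2 CPM over 6 libraries lay closest to that of CXCL8 were MMP1, INHBA, AOX1, SERPINB2 and SAMSN1, at Euclidean distances of 0.69, 0.73, 0.96, 1.06 and 1.09 log2 units. MMP1, the interstitial collagenase, had 11, 13 and 8 reads in the shNC libraries against 560, 439 and 562 in the shNUF2 libraries. INHBA, a subunit of activin A, gave 34, 36 and 41 reads under shNC, compared with 1604, 1375 and 1542 under shNUF2. The other three were at or near 0 with shNC, with 0 to 3 reads in a library, so that their distances depend on the prior count of 2 added before the logarithm. None of the chemokines was among the 5.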

How the data were processed

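The authors made TruSeq stranded mRNA libraries, sequenced them on an Illumina NovaSeq instrument, and deposited raw read counts per gene for 19973 genes. The submitters' processing notes name cutadapt, HISAT, HTSeq and GRCh38.p13, and the annotation release is not given in the sources used here. The authors also deposited FPKM values, which equal the count divided by gene length and library total to a relative deviation of 2.71e-07. All 6 libraries were used.

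Counts were fitted with edgeR 4.0.16 (R 4.3.3, TMM, filterByExpr with a minimum count of 10, quasi-likelihood test without covariates). A gene was called when its log2 fold change was beyond 1 with an unadjusted p under 0.05, thresholds taken from the study's methods with the fold change read on the log2 scale. Adjusted p-values follow Benjamini and Hochberg for 12874 genes, and a standard error is the ratio of the log2 fold change to the root of the F statistic. A permutation test of 3 against 3 libraries cannot go below p = 0.1. Folds against libraries at 0 use a floor of 3 reads per library, and intervals and floors cover counting error only.

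The chemokines and gene lists were chosen with earlier results of these data known. Named genes are the chemokines, receptors and regulators fixed by role, up to 4 called genes of each list and direction with the largest change, genes within 250 kb of the chemokine cluster, marker genes, the 5 genes closest to CXCL8, and IL1R1, CSF2, IKBKB, CHUK, IKBKG, JUND, FOSL2, HNRNPD and ANPEP, which were named after their values were seen. Some listed genes are not reported here. Alternatives used DESeq2 1.42.0 and limma 3.58.1. The tests were also run on simulated counts with independent libraries, a common dispersion and changes placed only in genes above a log2 CPM of 1. Such a run cannot check genes of low count or libraries that are not independent.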

Additional observations from a re-analysis of the deposited data

How the results depend on the processing

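Over 15 alternatives (other scalings, DESeq2, other filters, a block, adjusted p, limma on FPKM, and each library left out), the fitted log2 fold changes of the chemokines gave 104 values, and 0 changed sign. CXCL8 ranged from 5.57 to 6.13, CCL20 from 3.79 to 5.40 and CXCL16 from -1.48 to -1.25. The lowest values of CXCL8 and CCL20 came from limma on log2(FPKM + 1), which by construction shrinks genes of low level. Under that setting CXCL1 was at 2.45, CXCL3 at 2.52, CXCL2 at 1.99 and CXCL11 at 0.44, no longer beyond 1, while 430 genes were called higher and 206 lower, with 1 receptor and 2 other chemokines higher and 0 signalling genes lower. Of the 10 chemokines, 5 were then called higher, and with a pseudocount of 0.1 CXCL11 was at 1.39. Without the filter on low counts, 7 of the 10 chemokines (CXCL10 in addition), 5 receptors and 10 other chemokines were called higher. Over all genes, 1770 of 16861 were then called higher and 634 lower. With a minimum of 1 CPM in 3 libraries, 2 other chemokines were called higher, against 1092 of 12497 genes tested, and CXCL11 was not fitted.

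Replicate numbers are shared by the groups, but the deviations of same-numbered libraries correlated at 0.02, 0.0046 and -0.03, so that the numbers were not taken to pair them. With the replicate block 1207 genes were called higher and 536 lower. The block called 6 of the chemokines higher, 1 lower, 3 receptors and 4 other chemokines higher. When each library was left out in turn, 1198 to 1332 genes were called higher and 534 to 581 lower, and 6 chemokines were higher and 1 lower each time. Other scalings of the counts moved the median of all genes by less than 0.1. Depth limits CXCL5, CXCL6 and CXCL10, which did not pass the filter on low counts.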

Other observations

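Several chemokines of other families had reads with shNUF2 and none or few with shNC, at counts too low to pass the filter. Over all genes, 14582 to 14691 had a read in a shNC library and 15435 to 15536 in a shNUF2 library. More genes of any kind thus had reads with shNUF2, and the pattern is not particular to chemokines. CCL2, a monocyte attractant, was at 0 in the shNC libraries and at 8, 5 and 3 reads under shNUF2, which is at least 2.05-fold higher against a floor of 3 reads per library. CCL17, a CCR4 ligand, was at 0 in the shNC libraries and at 6, 3 and 1 reads in the shNUF2 libraries. CX3CL1, the membrane-bound ligand of CX3CR1, had 1, 0 and 0 reads under shNC against 4, 4 and 4 under shNUF2, a ratio of 13.7 (95% counting interval 2.03 to 586). CCR7, a lymph node homing receptor, gave 17, 14 and 11 reads under shNC, compared with 1, 8 and 10 under shNUF2. These genes were chosen after their values were seen.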
